A study of Mus musculus with 4 samples.

Results

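The genes of TFIIB and of 9 other subunits of the general initiation factors were followed in a map of TFIIB binding in the mouse heart. The 10 genes were chosen by name: Gtf2b (TFIIB itself), Tbp (the TATA-binding subunit of TFIID), Gtf2a1 and Gtf2a2 (TFIIA), Gtf2e1 and Gtf2e2 (TFIIE), Gtf2f1 and Gtf2f2 (TFIIF), and Gtf2h1 and Gtf2h2 (TFIIH). All 10 were among the 14469 genes of the deposited gene table, and 16 of the 20364 deposited regions named at least 1 of them. The map comes from whole hearts of C57BL/6 mice, immunoprecipitated with an antibody to Gtf2b and sequenced. It holds 1 library of the normal adult heart at 12 weeks, 1 of the heart of adult males of 12 weeks 4 days into transaortic coarctation (TAC), surgery that constricts the aorta so that the ventricle pumps against a higher pressure, 1 of the neonatal heart at 1 to 2 days, and 1 library of input DNA from whole heart. The labels used here do not say whether a library holds 1 heart or a pool. The per-library columns carry codes that match no sample label, so every value below is given over the 3 ChIP libraries together, with no replicate error, no test and no comparison of adult, TAC and neonate. In whole hearts, the number of cells of a type and the binding per cell cannot be told apart.

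Transcription by RNA polymerase II begins with a complex assembled at the gene start. TBP bends the DNA at the core promoter, TFIIA stabilises TBP on the DNA, and TFIIB binds TBP and the flanking DNA and positions the polymerase over the start. TFIIF arrives with the polymerase, TFIIE recruits TFIIH, and TFIIH opens the DNA with its helicase and phosphorylates the polymerase tail. In cardiac hypertrophy the RNA content of the heart increases, and the loading of this complex at promoters is one step at which that output can be set. A ChIP signal of TFIIB at the gene of an initiation factor is a measure of TFIIB on that gene, not of the level of the factor.

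A TFIIB region covered the start of each of the 10 initiation factor genes. The start was inside a region in 10 of 10, and 10 of 10 had a start-site region, here a region with its centre at most 1000 bp from the start, against 51.2% (46.6% at 500 bp) of 19962 named protein-coding genes and 76.5% of the 14469 genes of the table. In Gtf2a1 the region covered the start while the intervals called in it lay farther downstream. The share with the start inside a region was 50.8% over the named protein-coding genes. Each of the 10 start-site regions held a CpG island, as did 85.4% of the start-site regions of 11070 genes in the table. The other 6 regions that named a member lay farther away: 3 covered the starts of the neighbours Psmb1, Pdcd2 and Alkbh7, 2 lay inside Rbpms and 1 lay upstream of Gtf2b.

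The height of the signal split the genes into a group of 3 and a group of 7. The authors' peak value is a whole number on a scale that is not stated, the highest in any library over all regions assigned to a gene. It was 239 for Gtf2f1, 205 for Gtf2a1 and 204 for Gtf2b. It was 48 for Tbp, 38 for Gtf2h1, 35 for Gtf2e2, 30 for Gtf2a2, 29 for Gtf2e1, 22 for Gtf2h2 and 16 for Gtf2f2. No member fell between 48 and 204. Over all genes the median was 34, the 25th percentile 24, the 75th percentile 47 and the 99th percentile 178. Thus 3 of 10 members lay above the 99th percentile, where 0.995% of all genes lay, and 4 of 10 lay above the 75th, where 24.3% did. The fourth of these is Tbp, whose 48 belongs to a region over the start of its neighbour Pdcd2, and the start-site region of Tbp cannot exceed 43. Below the 25th percentile were 2 of 10 members, against 24.9% of all genes. The median of the 10 members, 36.5, was near that of all genes. Without replicates, neighbours in this order, such as Gtf2a1 and Gtf2b or Gtf2a2 and Gtf2e1, cannot be ranked against each other.

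**Figure D1:**
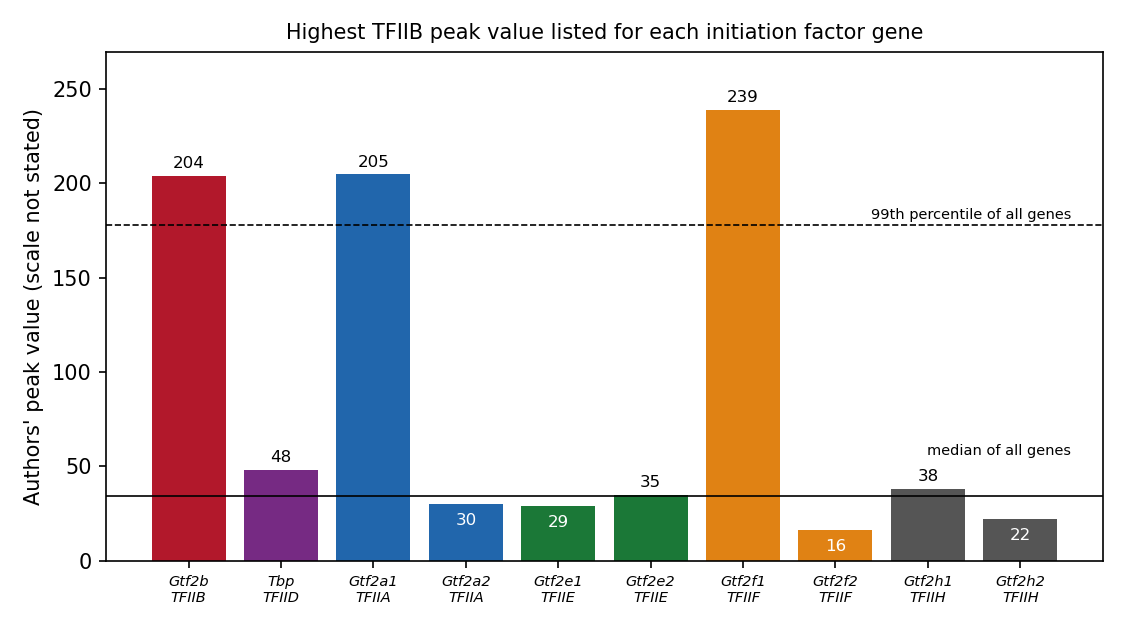
Highest TFIIB peak value listed for each of the 10 genes (y axis, the authors' value, scale not stated; 1 bar a gene, coloured by factor, no replicates). Lines mark the median of all genes, 34, and their 99th percentile, 178; Gtf2b, Gtf2a1 and Gtf2f1 stand above 200 and the other 7 genes between 16 and 48.

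**Figure D2:**
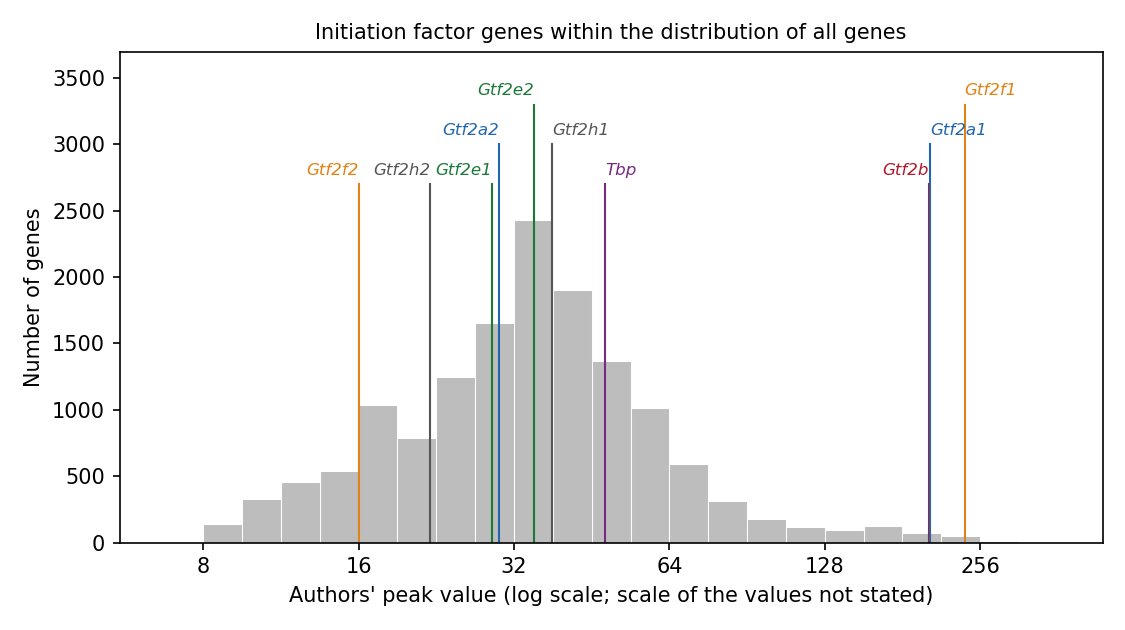
Number of genes (y axis) by peak value (x axis, log scale) for the 14469 genes of the table, with a vertical line at the value of each initiation factor gene. The line height carries no value. Of the members, 7 stand within the body of the distribution and Gtf2b, Gtf2a1 and Gtf2f1 in its upper tail.

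The promoters of the 3 genes with high values are shown with those of Gtf2f2, the member with the lowest value, and Gtf2h1, which shares its promoter with another gene, since the start sites are where the regions lie. They are RefSeq sequences of build GRCm38.p6, from 250 bp before the start to 50 bp after it, read along the gene's strand. The regions themselves are in mm9 coordinates and their own bases were not read. Counted from the deposited starts, the intervals called at Gtf2a1 and Gtf2h1 lie outside such a window. They are 543 and 2015 bp downstream in Gtf2a1 and 321 to 337 bp upstream in Gtf2h1. RefSeq held a promoter for 9 of the 10 members, all but Gtf2e2, and 2 for Gtf2a1, of which the upstream one is shown. They span chr3:142764997-142765296 on the plus strand for Gtf2b, chr12:91590438-91590737 on the minus strand for Gtf2a1, chr17:57011239-57011538 on the minus strand for Gtf2f1, chr14:76010816-76011115 on the minus strand for Gtf2f2 and chr7:46795844-46796143 on the plus strand for Gtf2h1. Capitals mark the matches to the motifs described below.
Gtf2b: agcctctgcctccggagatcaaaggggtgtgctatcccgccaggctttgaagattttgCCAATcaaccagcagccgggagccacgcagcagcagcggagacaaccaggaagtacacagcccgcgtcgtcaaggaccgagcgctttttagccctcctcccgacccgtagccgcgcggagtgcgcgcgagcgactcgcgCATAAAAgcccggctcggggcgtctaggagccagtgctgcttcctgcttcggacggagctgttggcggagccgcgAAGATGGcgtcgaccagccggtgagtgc
Gtf2a1: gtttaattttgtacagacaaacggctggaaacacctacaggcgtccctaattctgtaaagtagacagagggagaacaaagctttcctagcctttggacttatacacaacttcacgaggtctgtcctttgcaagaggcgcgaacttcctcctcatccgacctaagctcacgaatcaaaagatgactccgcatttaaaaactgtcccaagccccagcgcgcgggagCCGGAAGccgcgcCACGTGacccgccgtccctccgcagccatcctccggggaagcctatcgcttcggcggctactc
Gtf2f1: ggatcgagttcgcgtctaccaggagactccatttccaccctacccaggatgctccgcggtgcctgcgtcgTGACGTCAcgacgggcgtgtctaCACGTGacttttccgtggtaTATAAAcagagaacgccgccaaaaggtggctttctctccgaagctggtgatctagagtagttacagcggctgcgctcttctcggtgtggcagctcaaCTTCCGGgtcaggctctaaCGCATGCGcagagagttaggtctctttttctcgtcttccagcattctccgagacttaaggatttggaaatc
Gtf2f2: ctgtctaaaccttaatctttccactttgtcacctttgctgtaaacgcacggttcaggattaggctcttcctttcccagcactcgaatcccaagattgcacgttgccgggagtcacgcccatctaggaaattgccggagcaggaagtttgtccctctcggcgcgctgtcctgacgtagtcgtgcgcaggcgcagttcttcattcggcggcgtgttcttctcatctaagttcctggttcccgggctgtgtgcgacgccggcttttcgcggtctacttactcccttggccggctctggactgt
Gtf2h1: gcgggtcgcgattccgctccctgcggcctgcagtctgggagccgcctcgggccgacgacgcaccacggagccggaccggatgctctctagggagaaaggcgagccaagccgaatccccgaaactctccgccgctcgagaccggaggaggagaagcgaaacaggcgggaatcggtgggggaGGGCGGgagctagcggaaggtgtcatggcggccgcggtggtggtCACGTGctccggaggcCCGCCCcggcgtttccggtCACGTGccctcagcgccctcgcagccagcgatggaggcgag

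The ratio of observed to expected CpG was 1.02 in the Gtf2b promoter, 1.02 in the upstream Gtf2a1 promoter, 1.08 in Gtf2f1, 1.04 in Gtf2f2 and 1.04 in Gtf2h1. It was lower in the promoters of Gtf2a2 at 0.793, downstream Gtf2a1 at 0.796, Tbp at 0.803 and Gtf2h2 at 0.824, and 0.94 in that of Gtf2e1. The median was 0.98 over the 10 member promoters, 0.384 over 32851 RefSeq promoters and 0.779 over the 10600 promoters of genes with a start-site region. The GC content of the 10 member promoters ran from 47.0% in the downstream Gtf2a1 promoter to 71.0% in Gtf2h1, with a median of 56.2%, against 61.3% over promoters of genes with a start-site region. The lowest and the highest peak values, those of Gtf2f2 and Gtf2f1, thus belonged to promoters alike in both measures, with GC contents of 55.7% and 54.3%.

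Exact motif letters were searched on both strands of each promoter. The TATA box letters TATAAA were present in 2 of the 10 member promoters. They were at position -137 in Gtf2f1 and, on the other strand, at -204 in Gtf2a2. They were found in 13.6% of all promoters and in 6.66% of those of genes with a start-site region. Counted from the starts used here, both matches lie farther upstream than the usual place of a TATA box. The RefSeq gene of Gtf2f1 begins 106 bp upstream of that start. Counted from that edge, its TATAAA would lie a short way upstream, near the usual place of a TATA box. Which of these starts is used in the heart was not tested. The Gtf2b promoter held a TATA-like CATAAAA at -53, a motif chosen after the sequence was read, which 4.19% of all promoters and 1.61% of those with a start-site region hold. GGGCGCC, one form of the upstream TFIIB recognition element, matched 0 of the 10 member promoters, 6.49% of all promoters and 12.0% of those with a start-site region. A lack of these letters says only that this form is not in this window.

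Motifs of activators differed from gene to gene. The Gtf2f1 promoter held the most kinds. Its CRE letters TGACGTC were at -180 and overlapped their own reverse complement, the ETS letters CCGGAAG were at -40 on the other strand, and the NRF1 letters CGCATGC at -21 also overlapped their reverse complement. The CRE letters were found in 3.21% of all promoters, those of ETS in 8.86% and those of NRF1 in 3.58%. Over promoters of genes with a start-site region these shares were 5.75%, 18.7% and 6.58%. ETS letters were also in Gtf2a1 at -26, in Gtf2a2 at 8 and in Gtf2h2 at -184, which makes 4 of 10 member promoters. The GC box GGGCGG, in 35.7% of all promoters and 65.6% of those with a start-site region, was in 4 of 10, those of Tbp, Gtf2e1, Gtf2h1 and Gtf2h2. It was in no promoter of Gtf2b, Gtf2a1, Gtf2f1, Gtf2a2 or Gtf2f2. CCAAT was in 2 of 10 member promoters, in Gtf2b at -192 and in Gtf2e1 at -80 and -41. It was in 37.4% of all promoters and 37.8% of those with a start-site region. The YY1 letters AAGATGG were in 2 of 10, in Gtf2b at 23 and in Gtf2e1 at -129 on the other strand. Their shares were 6.34% of all promoters and 7.30% of those with a start-site region. The E-box CACGTG, also chosen after the sequences were read and found in 7.15% of all promoters and 10.1% of those with a start-site region, was in Gtf2a1 at -13, in Gtf2f1 at -157 and in Gtf2h1 at -26 and 10. The Gtf2f2 promoter held none of the 10 motifs searched. These are matches of letters, and binding by the named factors was not measured. Positions count from the starts of these promoters. The RefSeq gene begins 106 bp upstream of that start in Gtf2f1 and 215 bp upstream in Gtf2h2. Counted from there, the ETS letters of both genes and the NRF1 letters of Gtf2f1 would lie downstream.

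Gtf2b had TFIIB at its own promoter. The gene lies on the plus strand of chromosome 3 at 142428211 to 142446570 (mm9). Its start-site region spanned 142427464 to 142429144, 1680 bp, and was centred 93 bp downstream of the start. The 3 intervals called in it, an interval being a stretch of signal called in 1 library, were all placed at the same position, 51 bp upstream of the start. Of 5741 genes with a start-site region of 3 intervals, 5.05% had all 3 at 1 position. A second region of Gtf2b, 545 bp with 1 interval and no CpG island, was centred 7218 bp upstream, at 142420721 to 142421266. Since no other gene was assigned to either region, the table alone does not say which of them carries the value of 204. Among 2818 genes with 1 region, a CpG-island start-site region of 3 intervals, the value would stand at the 99.72nd percentile, and their median was 39.

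The genes most like Gtf2b in these tables were taken as the 5 protein-coding genes nearest to it in peak value among 1408 with 2 regions and a CpG-island start-site region of 3 intervals. They were Hn1 and Sumo2 at 198, Ifrd1 at 195, Ibrdc3 at 194 and Rbm13 at 214. Sumo2 encodes a small ubiquitin-like modifier. Hn1 and Sumo2 are both on chromosome 11 with the same value. Their start-site regions measured 1553 to 2325 bp, and that of Gtf2b 1680 bp. Likeness here covers 1 value and the make-up of the regions, not a pattern across samples.

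Tbp took its listed value from a neighbour. The gene lies on the plus strand of chromosome 17 at 15636874 to 15654391 and was assigned 3 regions of 3 intervals each. A region's value cannot exceed the lowest value among the genes assigned to it, which allows values to be placed in some loci. Psmb1, a proteasome subunit gene transcribed in the opposite direction from a start 1634 bp away, shares both upstream regions and has a value of 43. Neither of those regions can therefore exceed 43. The 48 of Tbp belongs to the region 27601 bp downstream of its start, at 15663707 to 15665244, which covers the start of Pdcd2, also listed at 48. The start-site region of Tbp, at 15636181 to 15637318, was 1137 bp long and centred 125 bp upstream of the start, with 2 intervals at -10 and 1 at -106. It was separated by 202 bp from the region over the Psmb1 start, so that the divergent genes had TFIIB regions of their own.

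TFIIA showed a wide gap between its subunit genes. Gtf2a1, which encodes the large precursor cleaved into the alpha and beta subunits, had 205 and Gtf2a2, which encodes the small gamma subunit, 30, a ratio of 6.83. Each had a single region, so both values belong to the start-site region. That of Gtf2a1, on the minus strand of chromosome 12 at 92826270 to 92829875, measured 3605 bp, at the 98.75th percentile of start-site regions, of which 2.97% reached 3 kb. It held 5 intervals, of which 2 lay 543 bp and 3 lay 2015 bp downstream of the annotated start, and none at the start itself. Over genes with a start-site region, 2.78% had all its intervals more than 500 bp downstream. RefSeq lists a pair of Gtf2a1 starts 838 bp apart in GRCm38.p6, and the gene spans 35225 bp there against 31772 bp in the table. Whether the inner intervals mark another start was not tested. Among 60 genes with 1 region, a CpG-island start-site region of 5 intervals, 205 stood at the 95.83rd percentile, and their median was 45.

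The Gtf2a2 region, on chromosome 9 at 69859979 to 69860979, measured 1000 bp and held 2 intervals, both 5 bp upstream of the start. The table assigns the same region to LOC624164, which starts 176 bp away on the same strand and carries the same 30, and to Bnip2, which ends upstream and has 60 from its other region. Among 1057 genes with 1 region, a CpG-island start-site region of 2 intervals, 30 had a percentile of 60.88, against 39.25 among all genes and 31.0 among genes with a CpG-island start-site region, so its side of the median depends on the comparison genes.

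The TFIIF genes stood at the extremes of the 10. Gtf2f1, which encodes the large subunit RAP74, had 239 and Gtf2f2, which encodes the small subunit RAP30, had 16, a ratio of 14.9. The Gtf2f1 value belongs to its start-site region on chromosome 17, at 57149988 to 57151673 and 1685 bp long. The other region assigned to the gene, 13908 bp downstream of its start and over the start of Alkbh7, cannot exceed 37. All 3 intervals at the Gtf2f1 start were placed 105 bp upstream of it. In RefSeq of GRCm38.p6 the gene spans 7993 bp, against 7886 bp in the deposited annotation. Its edge there lies 106 bp upstream of the start of the RefSeq promoter. Whether the intervals mark that edge was not tested. Khsrp, the upstream neighbour that encodes an RNA-binding splicing regulator, is listed at the same 239 because the region was assigned to it as well, 20100 bp from its start. Gtf2f2, on chromosome 14, had a region of 840 bp at 76410291 to 76411131 with 1 interval, 16 bp upstream of the start. Such a region comes from a single library, and Gtf2f2 was the only 1 of the 10 members whose start-site region was so made, against 18.1% of genes with a start-site region. Its value of 16 had a percentile of 11.1 among all genes and of 40.28 among 669 genes with 1 region, a CpG-island start-site region of 1 interval, whose median was 18.

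The TFIIE and TFIIH members had values between the percentiles 21.75 and 58.54 of all genes. Gtf2e1, which encodes the alpha subunit, had 29 and Gtf2e2, the beta subunit gene, 35, a ratio of 0.829. Gtf2e1 shares its region on chromosome 16, at 37539356 to 37540913, with Rabl3, a divergent gene that starts 125 bp away and carries the same 29. The 2 intervals there were placed 92 bp upstream and 47 bp downstream of the Gtf2e1 start. Gtf2e2, on chromosome 8, had a region at 34841877 to 34843126 with 3 intervals at 178, 82 and 18 bp upstream of the start. It was also assigned 2 regions of 1 interval each without a CpG island, centred 53612 and 54506 bp downstream of its start and inside Rbpms, an RNA-binding protein gene. As Rbpms has a value of 59, these regions could reach 35, and the value of Gtf2e2 could not be placed.

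Gtf2h1, which encodes the p62 subunit of TFIIH, had 38 and Gtf2h2, which encodes p44, 22, a ratio of 1.73. Gtf2h1 and the divergent gene Hps5, a subunit of a complex in lysosome-related organelle formation, start 425 bp apart on chromosome 7 and share 1 region, at 54050626 to 54052097. Its 3 intervals lay 321 to 337 bp upstream of the Gtf2h1 start and 88 to 104 bp upstream of that of Hps5, closer to the partner gene. The value of 38 is therefore listed for both and cannot be assigned to either start. The Gtf2h2 region, on chromosome 13 at 101261869 to 101262940, held 3 intervals, 2 at 6 bp upstream and 1 at 58 bp downstream of the start. Its value of 22 had a percentile of 21.75 among all genes, 29.93 among genes with as many regions, and 5.18 among the 2818 genes with 1 region, a CpG-island start-site region of 3 intervals.

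**Figure D3:**
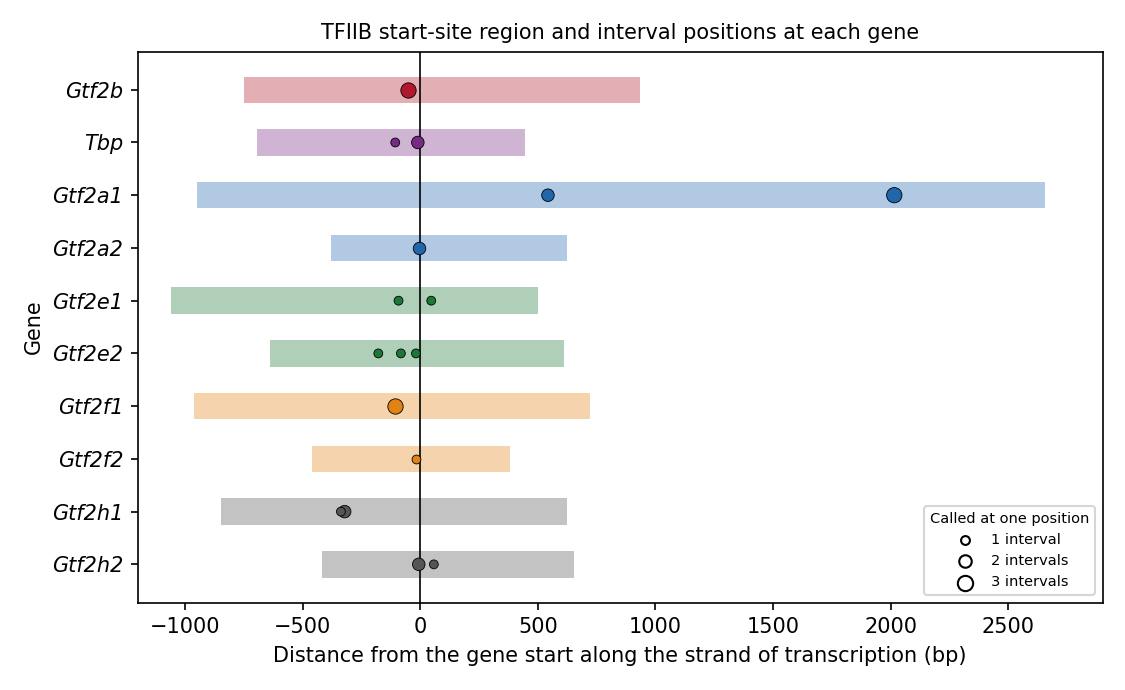
TFIIB start-site region of each gene (bars) and the positions of the intervals called in it (points, sized by the number of intervals at that position) by distance in bp from the gene start along the strand of transcription. The Gtf2a1 region of 3605 bp reaches farthest into its gene, with intervals at 543 and 2015 bp, and the Gtf2h1 intervals lie 321 to 337 bp upstream.

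The share of members with an interval close to the start was near that over genes with a start-site region. The nearest interval was within 100 bp in 7 of 10 members, the exceptions being Gtf2f1, Gtf2h1 and Gtf2a1, against 66.8% of genes with a start-site region. Start-site regions held 3 or more intervals in 7 of 10 members, against 58.0% of those genes. Of the 6 members with 3 intervals, Gtf2b and Gtf2f1 had all of them at 1 position, and of the 2 with 2 intervals, Gtf2a2 did, against 11.2% of 2641 genes with 2 intervals. Regions ran from 840 to 3605 bp with a median of 1360 bp, near the median of 1449 bp over genes with a start-site region. The start-site region was shared by a divergent pair in 2 of 10 members, Gtf2e1 and Gtf2h1, against 16.1% of those genes. The value could be placed in 1 region for 8 of 10 members, against 62.9% of all genes. That region was the start-site region in 7 of them and another one for Tbp, while Gtf2b and Gtf2e2 could not be resolved.

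Most other genes of the initiation machinery also had a start-site region. Start-site regions were found at 12 of 12 genes of RNA polymerase II subunits, although the region of Polr2l did not reach its start, 30 of 30 of Mediator, 13 of 15 of TAF subunits of TFIID, 10 of 10 of TFIIIA, TFIIIB and TFIIIC and 7 of 8 of further TFIIH genes. They were also found at 3 of 3 relatives of TFIIB, 5 of 5 TFIIS and TFII-I genes and 1 of 3 relatives of TBP and TFIIA. The shares were 51.2% over named protein-coding genes and 76.5% over the genes of the table. The median peak values were 34.5 for polymerase II, 37.5 for Mediator, 38 for TAFs, 39 for the polymerase III factors and 27 for TFIIH. Those of the 10 members and of all genes were 36.5 and 34. Over the 14469 genes, 84 (0.581%) had a value of 200 or more. Such values were found in 3 of the 10 members, in 1 of 12 polymerase II genes and in 1 of 15 TAF genes, and in 0 of 30 Mediator, 0 of 10 polymerase III factor and 0 of 7 further TFIIH genes with a value.

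As among the 10 members, single genes were listed far above the median of their list, although not all of these values belong to the gene's start. Polr2a, which encodes the largest polymerase subunit, had 262 at its start-site region, while Polr2c had 14. Taf12 had 245, but 1 of its regions covers the start of Rnu11, the gene of the U11 small nuclear RNA, and the value could not be placed. Taf9b had 15. Taf7 and Taf11 lacked a start-site region, although the start of Taf11 lay inside the region assigned to it. Med29, listed as Ixl, had 177 from a region away from its start, and Med30, listed as Thrap6, had 13. Of further TFIIH genes, Gtf2h3 had 65 and Mnat1, encoding a subunit of the CDK-activating kinase, 16, and no value is given here for Ercc2. Gtf3c6 was highest among polymerase III factors at 76, and Brf2, a relative of TFIIB at polymerase III promoters, lowest at 23. The other relatives of TFIIB had 38 for Brf1 and 16 for Taf1b, and Tbpl1, a relative of TBP, had 73. No value is given here for Tbpl2 or Gtf2a1l, which are chiefly genes of germ cells. Of the elongation factor TFIIS and TFII-I genes, with a median of 56, Tcea2 had 99 and Gtf2ird1 15.

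**Figure D4:**
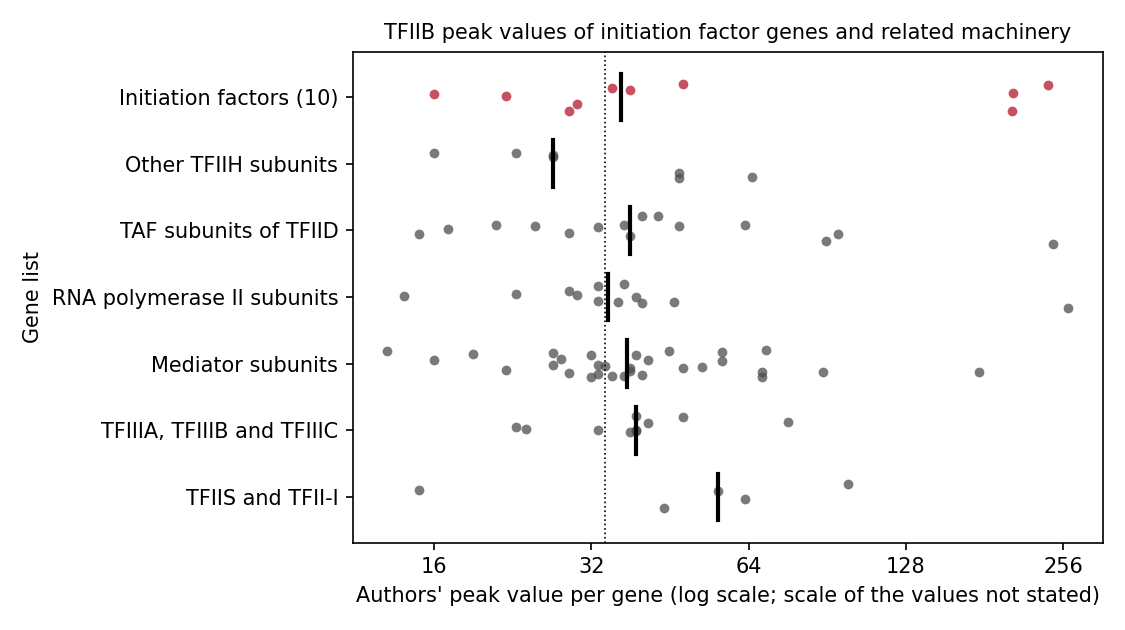
Peak value of each gene (x axis, log scale) in the 10 initiation factor genes and 6 lists of related machinery (rows; points are genes, shifted at random up or down so they can be told apart). Thick lines are list medians, from 27 to 56, and the dotted line is the median of all genes, 34.

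The label of the tissue was checked on marker genes. The start was inside a region at 8 of 8 heart markers, against 50.8% of named protein-coding genes, although Myh6 had no start-site region by its centre. Among these markers Actc1 was listed at 207 and Ryr2 at 31. The start was inside a region at 1 of 8 markers of other tissues, Ckm, a muscle gene that the heart also expresses, listed at 56. The values of Actc1, Ryr2 and Ckm could not be placed in 1 region. Of the rest, Apoa2 was listed at 38 and Sftpc at 19 from regions away from their starts, and no value is given here for Alb, Ins2, Gcg, Neurod1 and Umod.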

How the data were processed

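TFIIB ChIP-seq of 3 whole-heart groups of 1 library each, with 1 input library, was analysed from 2 deposited tables. Per the labels' protocols, ChIP, libraries and Illumina sequencing were done by a service company, and build mm9 is named in the submitters' processing notes. For the aligner, caller, thresholds, scaling and use of the input, these sources state nothing. Total reads are unknown, so no interval from depth can be given.

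The authors deposited 1 signal per gene, the peak value, a whole number that is a maximum over libraries and over the gene's regions, so genes with more regions can list higher values. The 15 per-library columns and the library names beside intervals match no sample label and were not used. The side-by-side values of the conditions planned for were therefore not computed.

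From the tables, the region centred nearest to each start within 1000 bp was taken as the start-site region. Percentiles count ties as halfway. A value was placed in a region when no other region of the gene could reach it. This step takes the peak value as the maximum over exactly the regions assigned to the gene, which was not tested. Interval positions were used without library names. They differed by multiples of 16 bp in 94.93% of gaps within a gene and lay within 16 bp of the region centre in 15.0% of single intervals, so a position is not a centre. What it marks is not stated. Of the gene IDs, 13659 matched RefSeq of GRCm38.p6, used for names, the list of protein-coding genes (19962 without provisional symbols) and promoters (positions count from 1 at the start, with negative numbers before it; both strands). All 100 different genes of the 10 related lists, markers included, matched; 2 are in 2 lists.

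The named genes are all members, their neighbours in shared regions, the highest and lowest of each related list and those without a start-site region, and the 5 genes nearest to Gtf2b; Rnu11 and Polr2l were added after their values were seen. The members and lists were chosen with earlier results of these data known. Alternatives are in the closing section. Python 3.11.15, pandas 2.3.3, numpy 2.4.6 and matplotlib 3.10.9 were used.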

Additional observations from a re-analysis of the deposited data

How the results depend on the processing

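With starts counted at 500 bp, 9 of 10 members had a start-site region, Gtf2a1 being the exception, and at 5000 bp 10 had one. The median of the members was 1.07 times that of all genes, 1.14 times that of genes with 1 region at the start (0.922 times when the members are also limited to those with 1 region) and 0.986 times that of genes with a CpG-island start-site region. It was 36.5 over all members, 29.5 over members with 1 region and 30.0 over those whose value belongs to the start-site region. The limit to members with 1 region in the ratio, the last setting and the comparison with genes of as many intervals were added after the data were seen. Gtf2b, Gtf2a1 and Gtf2f1 stayed above the 95th percentile under all 4 other sets of comparison genes. The percentile of Gtf2f2, 11.1 among all genes, was 5.32 among genes with a CpG-island start-site region and 40.28 among genes with 1 such region of as many intervals. In the same order it was 39.25, 31.0 and 60.88 for Gtf2a2, 36.91, 28.5 and 57.1 for Gtf2e1 and 21.75, 13.56 and 5.18 for Gtf2h2. The median of the TAF genes fell from 38.0 to 21.0 over the 4 with 1 region at the start. No paired analysis was possible because each group has 1 library. Without replicates or read depth, differences between the values listed here have no error.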
